A study of Homo sapiens with 33 samples.

Results

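The genes described here encode histones, the proteins around which DNA is wound, and they were read from arrays of urothelial carcinoma cells during and after inhibition of fibroblast growth factor receptors (FGFRs). A gene was included when its symbol in the array's probe annotation had the form of a clustered histone gene or of an H1 histone gene, and when at least 1 probe set carried that symbol alone. Of 22465 genes with such a probe set, 37 were histone genes, and where a gene had several probe sets the brightest one over all 33 arrays was read. Older names are given in brackets at first mention.

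RT112 and RT4 are established human bladder cancer lines that both express wild type FGFR3 and an FGFR3-TACC3 fusion, so every condition shared that alteration. PD173074 (PD) is a pan-FGFR kinase inhibitor. RT112 was measured untreated (parental), after 24 h in PD (acute PD, at a dose not given for the arrays in the sources used here), and as 3 resistant derivatives, R1 and R3 kept in 1 µM PD and R2 kept in 2 µM PD. RT4 was measured untreated and as 1 resistant derivative, RT4 R1, kept in 1 µM PD. Each derivative was measured in drug and again out of drug, after 4 to 6 passages without PD. R3 is a mixed population, part of which carries an HRAS mutation absent from parental RT112. The question for each comparison was which histone genes differed from the untreated parental line of the same origin, or between culture in and out of drug. Each of the 11 conditions had 3 arrays, and no label says whether these came from separate cultures, so the p-values measure the spread between arrays only. The comparisons with parental cells of 1 line share the parental arrays. The values are log2 RMA values, in which 1 unit is a doubling of signal, and array medians lay between 4.86 and 5.08.

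Most histone genes lie in clusters and are transcribed when DNA is replicated. Their transcripts lack a poly(A) tail and end in a stem-loop that is bound by stem-loop binding protein (SLBP), so that their amount follows S phase. A minority of clustered genes also give polyadenylated transcripts, which have been described in resting and differentiating cells. By a list taken from general knowledge, 6 of the 37 genes belonged to this polyadenylated class: the linker histone gene H1-2 (HIST1H1C), the H2A gene H2AC6 (HIST1H2AC) and the H2B genes H2BC5 (HIST1H2BD), H2BC11 (HIST1H2BJ), H2BC12 (HIST1H2BK) and H2BC21 (HIST2H2BE). A further 3 genes of the list had probe sets shared with other genes only and were not read as single genes. Shared probe sets are described by histone family at the end. The replication-linked class held the 23 genes that fell in no other class. Another 3 were testis histone genes, 4 lay outside the clusters (1 of these, H1-10-AS1, is an antisense RNA) and 1 was a pseudogene. No H3 gene and only 2 H4 genes of these classes (H4C3 and H4C7) had a probe set of their own. The classes are classes of genes and not of transcripts, since a probe set does not separate stem-loop from polyadenylated RNA of the same gene.

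The promoters of 4 genes are shown because the results turn on them: H2AC6 and H2BC21, which were higher in acute PD, H2BC12, of the same class but lower, and H2BC14 (HIST1H2BM), the replication-linked gene with the largest fall. Each is 300 bases of RefSeq sequence (GRCh38.p14), from 250 bases before the transcription start site to 50 bases after it, on the strand of the gene. H2AC6 is at chr6:26123922-26124221 on the plus strand, H2BC21 at chr1:149886633-149886932 on the minus strand, H2BC12 at chr6:27146809-27147108 on the minus strand and H2BC14 at chr6:27814772-27815071 on the plus strand. Capitals mark 3 motifs searched on both strands, the CCAAT box (CCAAT, or ATTGG on the other strand), a TATA element (TATAAA, or TTTATA) and the octamer known from H2B promoters (ATTTGCAT, or ATGCAAAT), with overlapping matches run together.
H2AC6: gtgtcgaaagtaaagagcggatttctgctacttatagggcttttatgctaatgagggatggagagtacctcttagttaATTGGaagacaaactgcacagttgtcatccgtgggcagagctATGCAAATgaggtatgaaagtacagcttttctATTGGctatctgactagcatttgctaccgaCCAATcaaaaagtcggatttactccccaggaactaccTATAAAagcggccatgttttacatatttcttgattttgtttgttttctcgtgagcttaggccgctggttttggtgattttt
H2BC21: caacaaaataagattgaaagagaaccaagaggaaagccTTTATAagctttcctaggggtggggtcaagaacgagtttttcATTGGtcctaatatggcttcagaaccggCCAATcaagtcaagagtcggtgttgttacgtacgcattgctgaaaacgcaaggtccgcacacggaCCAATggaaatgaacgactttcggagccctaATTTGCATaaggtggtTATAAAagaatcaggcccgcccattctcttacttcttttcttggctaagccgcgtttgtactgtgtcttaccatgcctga
H2BC12: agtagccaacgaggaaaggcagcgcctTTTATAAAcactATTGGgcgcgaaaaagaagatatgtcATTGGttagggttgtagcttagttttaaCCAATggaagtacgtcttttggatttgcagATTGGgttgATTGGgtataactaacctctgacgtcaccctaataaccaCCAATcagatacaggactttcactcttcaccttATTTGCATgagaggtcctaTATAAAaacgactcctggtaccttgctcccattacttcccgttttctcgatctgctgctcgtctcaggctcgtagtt
H2BC14: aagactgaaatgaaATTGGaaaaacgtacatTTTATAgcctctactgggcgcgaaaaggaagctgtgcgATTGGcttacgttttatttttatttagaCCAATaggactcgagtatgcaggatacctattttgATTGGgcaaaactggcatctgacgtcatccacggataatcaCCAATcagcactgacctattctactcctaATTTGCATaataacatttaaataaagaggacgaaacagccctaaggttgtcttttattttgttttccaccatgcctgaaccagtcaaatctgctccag
The octamer was present in all 4 windows. It began 46 bases before the start site in H2BC21 and 46 bases before it in H2BC12, which moved in opposite directions in acute PD, and 48 bases before it in H2BC14. The nearest TATAAA in the gene's own direction stood 31 bases before the start of H2AC6, 30 before H2BC21 and 27 before H2BC12, while the only match in H2BC14 was in the other direction, 219 bases before its start. Among 33 histone genes with a promoter in the table, 31 held CCAAT, 21 held TATAAA and 17 held the octamer, against 34.6%, 11.5% and 1.77% of 35116 promoters of the same length. Of the 6 polyadenylated-class promoters, 6 held CCAAT, 5 TATAAA and 4 the octamer, and of 21 replication-linked promoters 20, 13 and 11 did. The 5 pairs of neighbouring histone genes described below start 215 to 245 bases apart, so their windows overlap. A match can therefore be counted for both genes of a pair, also across the classes. The octamer 46 bases before H2BC21 is the same site as the match 197 bases before the replication-linked gene H2AC20. All 3 motifs were found in both classes, and such a match is a description of the letters only.

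In 2 conditions 1 array stood apart from the others, which touches several results below. Between arrays of RT112 R1 in drug the root mean square distance over all genes reached 0.617 log2 units, with replicate 3 apart, and in RT4 parental cells 0.534, with replicate 1 apart. In the other 9 conditions the farthest pair lay 0.238 to 0.458 from each other. In RT112 R1 in drug, H2BC14 was at 8.86, 8.72 and 12.22 in replicates 1 to 3 and H2AC6 at 10.66, 10.15 and 8.50, so replicate 3 was higher in the first gene and lower in the second. In RT4 parental cells, H2BC14 was at 6.45, 11.02 and 10.64 and H2AC6 at 10.77, 8.89 and 9.15, so replicate 1 was lower in the first and higher in the second. For the comparisons that use these arrays, the class counts and the main genes are given with and without them, and fits over all arrays of a line include them. The 11 epithelial marker genes averaged 12.7 to 13.5 over the arrays, whereas 6 immune markers averaged 4.88 to 5.45 and 5 endothelial markers 4.37 to 4.83, close to the array medians. The 8 fibroblast markers averaged 4.58 to 6.16. Single markers of these lists stood higher, with means over all arrays of 9.73 for LUM (fibroblast) and 8.15 for CD68 (immune). Against parental cells in limma's test (adjusted p under 0.01), 1 of 11 epithelial markers was higher and 5 lower in acute PD, while 2 fibroblast, 1 immune and 1 endothelial marker were higher there, where 11.4% of all genes were higher and 13.1% lower. In R1 in drug 2 fibroblast markers were higher and 1 epithelial marker lower, where 11.7% of all genes passed in either direction. In R2 in drug 3 fibroblast and 2 epithelial markers were higher, and 3 epithelial and 1 immune marker lower. There 9.08% of all genes were higher and 8.91% lower. In RT4 R1 in drug 2 epithelial and 1 immune marker were lower, where 5.86% of all genes passed in either direction. In R3 in drug none of these 30 markers passed. The part of these markers in the histone results was not tested.

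In RT112 treated with PD for 24 h, most replication-linked histone genes fell while H2AC6 and H2BC21 rose. H2AC6, which encodes a canonical H2A, was at 7.80, 7.87 and 8.33 in the parental arrays and at 9.63, 9.91 and 10.51 in acute PD. H2BC21, which encodes an H2B, went from 9.73, 9.92 and 10.22 to 11.22, 11.76 and 11.63. Every treated array was above every parental array for both genes. H2AC6 rose by 2.02 (SE 0.24, adjusted p = 8.06e-04), a 4.05-fold difference, and H2BC21 by 1.58 (SE 0.18, adjusted p = 5.76e-04), 2.99-fold (limma, Benjamini-Hochberg over all genes, threshold 0.01). At this threshold 11.4% of all genes were higher and 13.1% lower in acute PD. Both calls held when any 1 of the 6 arrays was left out, with H2AC6 between 1.77 and 2.21 and H2BC21 between 1.47 and 1.74.

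The other 4 genes of the polyadenylated class did not rise. H2BC12, an H2B gene, went from 15.46, 15.51 and 15.69 to 15.02, 15.16 and 14.77 and fell by 0.57 (SE 0.12, adjusted p = 0.00856). H2BC11 fell by 1.24 (SE 0.26, adjusted p = 0.00857), from 11.39, 11.15 and 11.69 to 10.53, 10.38 and 9.61. For both genes the treated arrays lay below the parental ones, but each call stood close to the threshold. H2BC12 and H2BC11 each stayed past it in only 1 of the 6 fits that left out an array, so the class count of 4 became 2 without acute PD replicate 1 or without any 1 of the 3 parental arrays, and 3 without acute PD replicate 2 or 3. The linker histone gene H1-2 differed by 0.31 (SE 0.15, adjusted p = 0.152) and H2BC5 by -0.17 (SE 0.13, adjusted p = 0.360), with overlapping arrays in each case. The 6 genes together had a median difference of 0.07, beside 0.01 over all genes, made up of 2 that rose, 2 that fell and 2 that did not pass.

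Of the 23 replication-linked genes, 14 fell and none rose, where 13.1% of all genes were lower and 11.4% higher. Their median difference was -0.82. H2BC14, an H2B gene, was at 11.31, 10.95 and 11.47 in parental cells and at 8.91, 9.47 and 8.85 in acute PD, without overlap, and fell by 2.17 (SE 0.20, adjusted p = 2.75e-04). H2BC10 (HIST1H2BI) fell by 1.86 (SE 0.25, adjusted p = 0.00118) and H2BC3 (HIST1H2BB) by 1.76 (SE 0.15, adjusted p = 1.98e-04), both also H2B genes. HIST1H2AH, an H2A gene that RefSeq names H2AC12, fell by 1.44 (SE 0.17, adjusted p = 8.06e-04). The linker genes H1-3, H1-4 and H1-5 and the H4 gene H4C3 were among the 14. In 18 of the 23 genes all treated arrays lay below all parental arrays, against 24.5% of all genes. The 9 genes that did not pass included H2AC20 (HIST2H2AC), at 16.09, 16.07 and 16.21 in parental cells and 16.25, 15.97 and 15.68 in acute PD. Also among them were H4C7 and HIST2H2BF, with mean levels over all arrays of 3.63 and 4.96, below and within the range of the array medians. Leaving out single arrays gave 10 to 14 genes. In 1 fit over all 24 RT112 arrays 5 replication-linked genes passed, with H2AC6 and H2BC21 as the polyadenylated-class calls, and the t-test named in the study's methods, adjusted in the same way, called 3 and 0. In bulk RNA, fewer cells in S phase and less histone RNA in each such cell cannot be told apart. None of the 8 testis, non-cluster and pseudogene members passed, with differences between -0.19 and 0.20.

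**Figure D1:**
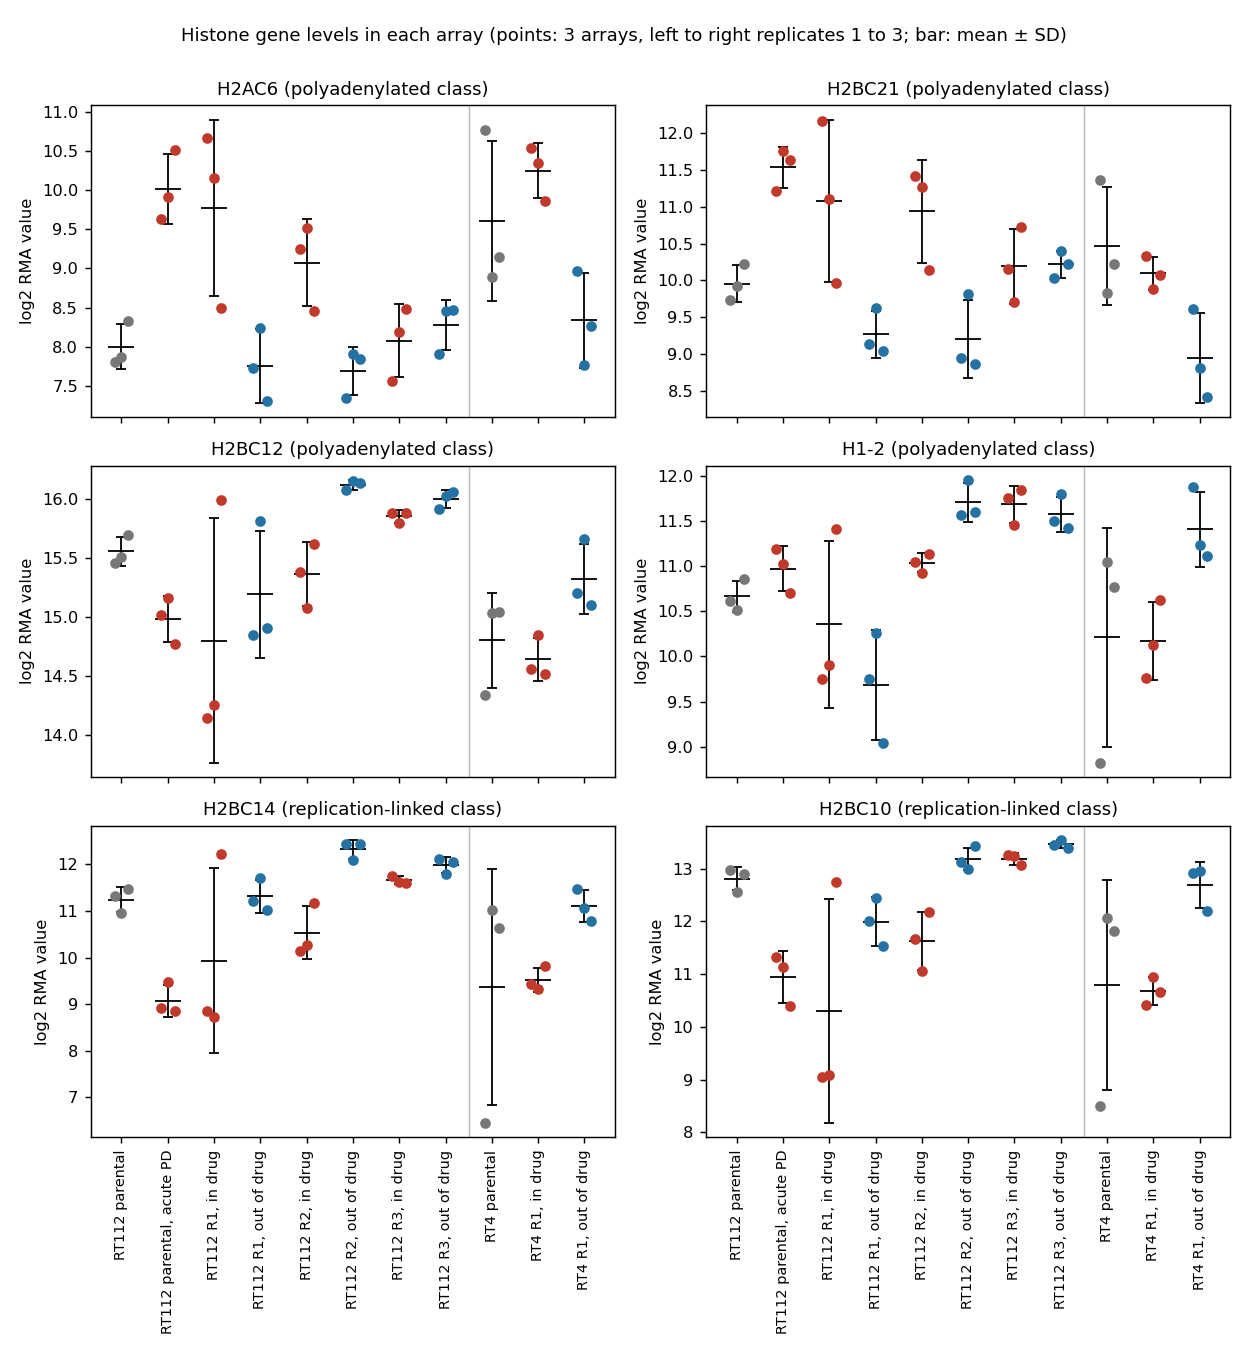
Log2 RMA values of 6 histone genes in the 33 arrays (y axis) by condition (x axis). Points are single arrays and bars are the mean ± SD of 3 arrays. H2AC6 and H2BC21 are high and H2BC14 and H2BC10 low in acute PD, and RT112 R1 in drug replicate 3 and RT4 parental replicate 1 lie far from the other arrays of their conditions.

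H2BC21 and H2AC20 are transcribed away from each other from start sites 236 bases apart on chromosome 1 (GRCh38.p14), so their values are given side by side. In acute PD H2BC21 rose by 1.58, while H2AC20 differed by -0.16 (SE 0.14, adjusted p = 0.444). The difference between the pair was not tested. There were 5 such pairs of histone genes, with start sites at most 500 bases apart, and 2 others had a member that passed in acute PD. H2BC14 fell by 2.17 as given above, and its partner H2AC14 (HIST1H2AJ) fell by 1.07 (SE 0.09, adjusted p = 2.35e-04). H2BC13 (HIST1H2BL) fell by 1.05 (SE 0.19, adjusted p = 0.00478), with its partner H2AC13 (HIST1H2AI) at -0.29 (SE 0.10, adjusted p = 0.0573). H2AC6 starts 246 bases from H2BC4, whose probe sets were shared and which was not read as a single gene. H2BC12 starts 248 bases from the span of HIST1H2AH, for which the gene table used here held no strand, so the pair was not among the 5. Both fell in acute PD, by 0.57 and 1.44.

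Genes that act with histone genes fell too. Among 44 DNA replication genes, 42 fell in acute PD and none rose, with a median difference of -2.05. In acute PD 13.1% of all genes were lower and 11.4% higher. DTL, which takes part in the destruction of licensing factors, fell by 4.37 (SE 0.36, adjusted p = 1.95e-04). The replication initiation gene MCM10 fell by 4.18 (SE 0.24, adjusted p = 6.66e-05), and CDC6, of the same process, by 4.03 (SE 0.28, adjusted p = 1.01e-04). Of 19 genes for histone mRNA transcription, processing and decay, 13 fell, led by the cyclin E genes CCNE2, by 2.58 (SE 0.22, adjusted p = 2.03e-04), and CCNE1, by 1.80 (SE 0.12, adjusted p = 8.42e-05). NCBP1, a subunit of the nuclear cap-binding complex, fell by 1.18 (SE 0.11, adjusted p = 2.62e-04), and SLBP by 0.98 (SE 0.09, adjusted p = 2.47e-04). Of 20 histone variant and chaperone genes 13 fell, among them the variant gene H2AX, by 2.14 (SE 0.20, adjusted p = 2.78e-04). Both subunits of the FACT chaperone were lower, SSRP1 by 2.00 (SE 0.13, adjusted p = 8.11e-05) and SUPT16H by 1.73 (SE 0.18, adjusted p = 3.88e-04).

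In RT112 R1 in drug, no histone gene passed in limma's test over all 3 arrays (11.7% of all genes did). Of the 37, 3 had an unadjusted p under 0.05. At least 11.7% of all genes had one too, since every gene that passes does. For this and later counts at that level the share of all genes is not given, so they are not results about histone genes. The methods' t-test, adjusted over all genes as above, called none of the 29 genes of both classes. H2AC6 was at 10.66, 10.15 and 8.50, a difference of 1.77 (SE 0.55, adjusted p = 0.0696) from parental cells, and H2BC21 at 12.17, 11.11 and 9.96, a difference of 1.12 (SE 0.54, adjusted p = 0.204). Among replication-linked genes H2BC10 differed most, by -2.51 (SE 1.01, adjusted p = 0.138), with replicates at 9.06, 9.09 and 12.75 against 12.97, 12.56 and 12.89 in parental cells. Replicates 1 and 2 lay far below the parental arrays and replicate 3 among them. Without replicate 3, H2AC6 was higher by 2.40 (SE 0.22, adjusted p = 8.81e-04) and 14 of 23 replication-linked genes were lower, H2BC10 by -3.73 (SE 0.14, adjusted p = 9.34e-05), where 9.61% of all genes were higher and 11.9% lower. In the same fit the polyadenylated-class genes H2BC12 at -1.35 (adjusted p = 4.54e-04), H2BC11 at -1.92 (adjusted p = 0.00298) and H1-2 at -0.84 (adjusted p = 0.00441) were also lower, and H2BC21 at 1.68 (adjusted p = 0.0120) did not pass. None of 44 DNA replication genes passed with all arrays, with a median of -1.59. In the machinery list 3 of 19 genes passed with all arrays, all lower, where 11.7% of all genes passed in either direction. CPSF2, a subunit of the cleavage complex, fell by 2.15 (SE 0.14, adjusted p = 4.62e-04), SLBP by 1.31 (SE 0.19, adjusted p = 0.00606) and the scaffold gene SYMPK by 0.46 (SE 0.07, adjusted p = 0.00513).

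In RT112 R2 in drug, 6 of 23 replication-linked genes fell and none rose, where 8.91% of all genes were lower and 9.08% higher. HIST1H2AH was at 7.89, 7.81 and 8.19 against 9.07, 8.74 and 9.11 in parental cells and fell by 1.01 (SE 0.14, adjusted p = 0.00206). H2BC3 fell by 0.93 (SE 0.18, adjusted p = 0.00780), H2AC14 by 0.72 (SE 0.11, adjusted p = 0.00318) and H2AC13 by 0.71 (SE 0.12, adjusted p = 0.00478). The mean level of H2AC14 over all arrays, 4.94, was within the range of the array medians. No polyadenylated-class gene passed in limma's test, and the methods' t-test called none. An unadjusted p under 0.05 in limma was found for 4 of 6, with the share of all genes at that level not given. H2AC6 was at 9.25, 9.52 and 8.45, a difference of 1.07 (SE 0.28, adjusted p = 0.0264), and H2BC21 at 11.42, 11.27 and 10.14, a difference of 0.99 (SE 0.33, adjusted p = 0.0624). H2BC11, at 10.83, 10.54 and 10.67, lay below all parental arrays with a difference of -0.73 (SE 0.15, adjusted p = 0.0101), nearest to the threshold. H1-2, at 11.05, 10.93 and 11.14, lay above them with a difference of 0.37 (SE 0.11, adjusted p = 0.0411). Replicate 3 was the lowest of the 3 for H2AC6 and H2BC21, and overlapped the parental arrays for H2BC21. The count of replication-linked genes moved with single arrays, to 10 without R2 in drug replicate 3, to 2 without replicate 2 and 0 without replicate 1, and to 2, 3 and 0 without parental replicates 1, 2 and 3. Without replicate 3 the polyadenylated class had 2 calls, H2AC6 and H2BC21, and without parental replicate 2 it had 1, H2BC11. In 1 fit over all RT112 arrays 1 replication-linked gene passed.

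Of the DNA replication list 18 of 44 fell in R2 in drug, led by ORC1, of the origin recognition complex, by 2.01, MCM10 by 1.88 and RRM2, of ribonucleotide reductase, by 1.85 (adjusted p = 0.00638, 0.00595 and 0.00371). Of the machinery list 4 of 19 fell and 2 rose. The largest falls there were in the cleavage genes CSTF2, by 1.15 (SE 0.17, adjusted p = 0.00233), CPSF2, by 1.02 (SE 0.12, adjusted p = 0.00111), and CPSF3, by 1.01 (SE 0.20, adjusted p = 0.00945). Of the variant and chaperone list 5 of 20 fell, and SSRP1, H2AX and SUPT16H had the largest falls, by 1.48, 1.39 and 0.84 (adjusted p = 0.00191, 0.00113 and 0.00911).

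In RT112 R3 in drug no histone gene passed against parental cells in limma's test (1.95% of all genes did), and the methods' t-test called none of the 29. An unadjusted p under 0.05 in limma was found for 9 of 37, with the share of all genes at that level not given. H2AC6 was at 7.56, 8.19 and 8.48, a difference of 0.08 (SE 0.26, adjusted p = 0.886), and H2BC21 at 10.15, 9.70 and 10.72, a difference of 0.23 (SE 0.27, adjusted p = 0.629). Their arrays overlapped those of parental cells. H2BC3 had the largest difference of the replication-linked genes, -0.66 (SE 0.16, adjusted p = 0.0533). H1-2 was at 11.76, 11.46 and 11.85 against 10.62, 10.52 and 10.86, a difference of 1.02 (SE 0.14, adjusted p = 0.0107). Its arrays lay above all parental arrays, but the value did not pass. The replication and chaperone lists had no calls, and in the machinery list LSM1, of the complex that acts in histone mRNA decay, rose by 0.76 (SE 0.09, adjusted p = 0.00899).

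Set against acute PD instead of parental cells, R3 in drug differed in both directions. Of 23 replication-linked genes, 12 were higher in R3 and none lower, where 5.33% of all genes were higher and 5.74% lower. H2BC14, at 11.75, 11.63 and 11.61 in R3, was higher by 2.59 (SE 0.17, adjusted p = 0.00153). H2AC6 was lower, by -1.94 (SE 0.31, adjusted p = 0.00726), and H2BC12 higher, by 0.87 (SE 0.11, adjusted p = 0.00453), while H2BC21 at -1.35 (SE 0.28, adjusted p = 0.0161) did not pass. Of the DNA replication genes, 40 of 44 were higher in R3. These counts depended on single arrays. The 12 became 2 and 0 without R3 replicates 1 and 2, and 0, 2 and 2 without acute PD replicates 1, 2 and 3, and 13 without R3 replicate 3. The 2 polyadenylated-class calls became 3 without R3 replicate 3 and 0 without any other array.

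Another 4 pairs of conditions in drug were compared, and R1 was not set against R2. With all arrays, 1 histone gene passed in each of 2 of these pairs. R2 was lower than R3 in 1 gene, H2AC14, by -0.80 (SE 0.10, adjusted p = 0.00655), where 1.02% of all genes were lower. R2 was higher than acute PD in 1, H2BC3, by 0.83 (SE 0.15, adjusted p = 0.00906), where 5.88% of all genes were higher. Neither held throughout when arrays were left out: the first count became 0 without R2 replicate 1 or 2 or R3 replicate 1 or 2 and 5 without R2 replicate 3, and the second 0 without R2 replicate 1 or 3 or any acute PD array. R1 in drug differed in limma's test from R3 in drug and from acute PD in no histone gene over all arrays (4.77% and 7.08% of all genes passed). The methods' t-test called none of the 29. At an unadjusted p under 0.05 in limma there were 7 and 1 of 37, with the share of all genes at that level not given. Without R1 replicate 3, 14 of 23 replication-linked genes and 3 polyadenylated-class genes were lower in R1 than in R3 and H2AC6 was higher by 2.33 (SE 0.32, adjusted p = 0.00959), where 4.27% of all genes were higher and 3.89% lower. Against acute PD, again without that array, 3 replication-linked genes, H2BC10 at -1.88 (adjusted p = 0.00997), H1-5 at -0.93 (adjusted p = 0.00607) and H4C3 at -0.61 (adjusted p = 0.00885), and H1-2 at -1.15 (adjusted p = 0.00800) were lower in R1, where 4.12% of all genes were higher and 4.34% lower. H2AC6 at 0.39 (adjusted p = 0.427) and H2BC21 at 0.10 (adjusted p = 0.874) did not pass there.

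In RT4 R1 in drug no histone gene passed against RT4 parental cells in limma's test (5.86% of all genes did), 1 of 37 had an unadjusted p under 0.05 and the methods' t-test called none of the 29. H2AC6 was at 10.54, 10.34 and 9.86, against 10.77, 8.89 and 9.15 in parental cells, a difference of 0.64 (SE 0.48, adjusted p = 0.443). H2AC21 (HIST2H2AB) had the largest difference of the replication-linked genes, -0.89 (SE 0.63, adjusted p = 0.422). Without parental replicate 1, H2AC6 was higher by 1.23 (SE 0.21, adjusted p = 0.00862), and 8 of 23 replication-linked genes were lower, where 3.95% of all genes were higher and 6.63% lower. The largest of these differences were H2AC21 at -1.70 (adjusted p = 8.49e-04), H2BC3 at -1.58 (adjusted p = 0.00504), H2BC14 at -1.31 (adjusted p = 0.00432) and H2BC10 at -1.27 (adjusted p = 0.00379). H2BC21 was then at 0.07 (SE 0.17, adjusted p = 0.768). In the machinery list CPSF2 alone passed with all arrays, and fell by 0.73 (SE 0.11, adjusted p = 0.00712), and the other 2 lists had no calls. The difference between the 2 cell lines was tested as the R1 effect in RT112 minus that in RT4. It was 1.13 (SE 0.80, adjusted p = 0.401) for H2AC6 and 1.50 (SE 0.71, adjusted p = 0.196) for H2BC21. No histone gene passed this limma test (7.76% of all genes did), with 1 of 37 at an unadjusted p under 0.05 and none in a fit over all 33 arrays. Both arrays that stood apart enter this test. Without RT112 R1 in drug replicate 3 the values were 1.76 (SE 0.63, adjusted p = 0.0772) for H2AC6 and 2.06 (SE 0.56, adjusted p = 0.0259) for H2BC21, and without RT4 parental replicate 1 H2AC6 was at 0.54 (SE 0.69, adjusted p = 0.616) and H2BC21 at 1.05 (SE 0.66, adjusted p = 0.294). No histone gene passed in either fit. Without both arrays H2AC6 was at 1.18 (SE 0.34, adjusted p = 0.0279) and H2BC21 at 1.61 (SE 0.41, adjusted p = 0.0163), and 3 of 37 histone genes passed, where 16.2% of all genes did. These were H2BC10 at -2.46 (SE 0.24, adjusted p = 1.02e-04), H2BC12 at -0.96 (SE 0.16, adjusted p = 0.00227) and HIST1H2AH at -0.96 (SE 0.18, adjusted p = 0.00415), all lower in RT112 relative to RT4.

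**Figure D2:**
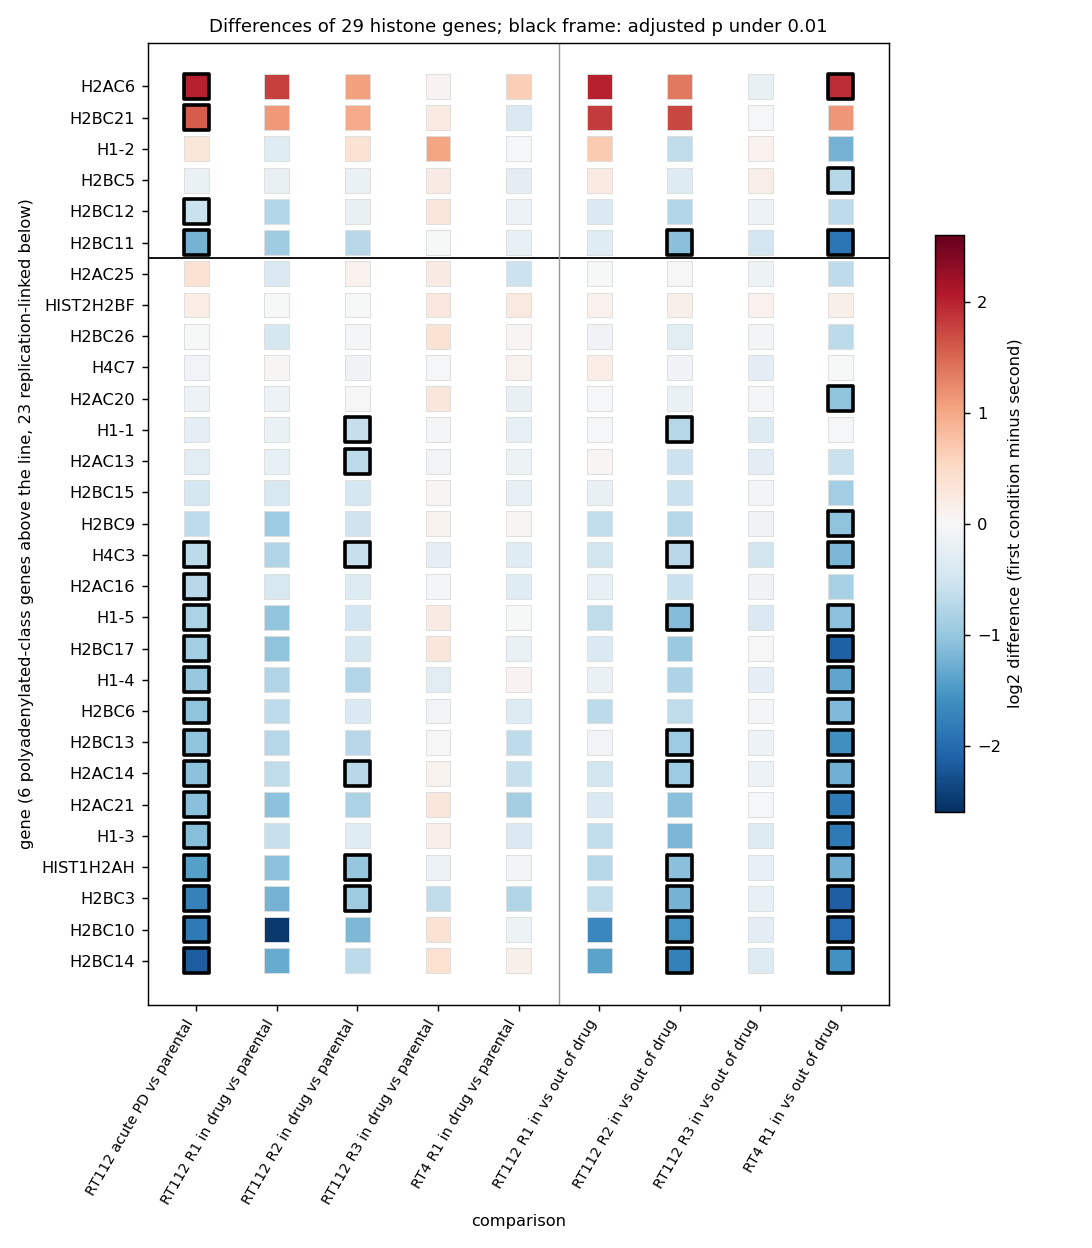
Log2 differences (colour, with the scale beside it) of the 6 polyadenylated-class genes and the 23 replication-linked genes, in rows, in 9 comparisons, in columns. A black frame marks an adjusted p under 0.01 in limma. In acute PD 14 of the 23 replication-linked genes are framed and lower, while H2AC6 and H2BC21 are framed and higher. Of all genes, 13.1% were lower and 11.4% higher there.

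Withdrawal of the drug was compared within each derivative. In RT4 R1, 15 of 23 replication-linked genes were lower in drug than out of it and none higher, where 5.74% of all genes were lower and 4.79% higher. H2BC3 was at 5.39, 6.08 and 5.88 in drug and at 8.08, 8.18 and 7.53 out of drug, a difference of -2.15 (SE 0.22, adjusted p = 9.49e-04). H2BC17 (HIST1H2BO) differed by -2.12 (SE 0.17, adjusted p = 3.12e-04) and H2BC10 by -2.01 (SE 0.23, adjusted p = 0.00133). H2AC20, the divergent partner of H2BC21, was also lower in drug here, by -1.05 (SE 0.14, adjusted p = 0.00229). H2AC6 was at 10.54, 10.34 and 9.86 in drug against 8.97, 7.77 and 8.27 out of it, 3.76-fold higher in drug, a difference of 1.91 (SE 0.31, adjusted p = 0.00549). H2BC11 at -1.89 (SE 0.19, adjusted p = 8.47e-04) and H2BC5 at -0.74 (SE 0.14, adjusted p = 0.00998) were lower in drug. H2BC21, at 10.33, 9.88 and 10.08 against 9.61, 8.81 and 8.42, differed by 1.15 (SE 0.29, adjusted p = 0.0303) and did not pass, although its arrays did not overlap. Leaving out 1 array gave 8 to 14 replication-linked genes, with 8, 8 and 9 without RT4 R1 in drug replicates 1, 2 and 3. H2AC6 passed in 1 of the 6 such fits, with values between 1.63 and 2.23, and H2BC11 in all 6. The 3 calls of the polyadenylated class became 1 without any 1 of the in-drug arrays or without out-of-drug replicate 2, and 2 without out-of-drug replicate 3. In 1 fit over all 9 RT4 arrays, which include the parental array that stood apart, no gene of either class passed, nor did any by the methods' t-test.

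In R2, 9 of 23 replication-linked genes were lower in drug than out of it and none higher, where 5.85% of all genes were lower and 4.36% higher. H2BC14, at 10.15, 10.27 and 11.18 in drug and 12.44, 12.09 and 12.43 out of drug, differed by -1.79 (SE 0.27, adjusted p = 0.00591), and H2BC10 by -1.55 (SE 0.27, adjusted p = 0.00909). Of the polyadenylated class, H2BC11 was lower in drug, by -1.09 (SE 0.11, adjusted p = 0.00196). H2AC6 at 1.38 (SE 0.29, adjusted p = 0.0166) and H2BC21 at 1.73 (SE 0.40, adjusted p = 0.0222) did not pass. The 9 became 11 without R2 in drug replicate 3, 0 without in-drug replicate 1 or 2 or out-of-drug replicate 3, 2 without out-of-drug replicate 1 and 1 without out-of-drug replicate 2. The polyadenylated class had 4 calls without in-drug replicate 3, H2AC6 and H2BC21 higher in drug among them, and 0 without in-drug replicate 1 or out-of-drug replicate 3.

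In R1, 1 histone gene passed between culture in and out of drug (5.68% of all genes), the testis gene H1-6, at 5.59, 5.41 and 5.66 in drug and 6.54, 6.50 and 6.87 out of drug, a difference of -1.08 (SE 0.14, adjusted p = 0.00479). H2AC6 at 2.01 (SE 0.56, adjusted p = 0.0628) and H2BC21 at 1.81 (SE 0.53, adjusted p = 0.0714) did not pass. Without in-drug replicate 3, H1-6 was at -1.14 (SE 0.15, adjusted p = 0.00321). In that fit H2AC6 was higher in drug by 2.65 (SE 0.29, adjusted p = 0.00169) and H2BC21 by 2.37 (SE 0.34, adjusted p = 0.00395), and 9 of 23 replication-linked genes were lower, where 6.72% of all genes were higher and 7.04% lower. In R3 no gene of the 22465 passed limma's test between culture in and out of drug (0%), and none of the 29 by the methods' t-test. Of the 37 histone genes, 7 had an unadjusted p under 0.05 in limma, all lower in drug, with the share of all genes at that level not given. H2AC6 differed there by -0.20 (SE 0.27, adjusted p = 0.976) and H2BC21 by -0.03 (SE 0.26, adjusted p = 0.996).

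Out of drug, the derivatives were compared with their parental lines. In R2, H1-2 rose by 1.04 (SE 0.14, adjusted p = 0.00452), from 10.62, 10.52 and 10.86 to 11.57, 11.96 and 11.60, and H2BC12 by 0.56 (SE 0.08, adjusted p = 0.00602). The replication-linked genes H2BC14, by 1.08 (SE 0.16, adjusted p = 0.00661), and H1-5, by 0.65 (SE 0.09, adjusted p = 0.00588), rose too, where 4.18% of all genes were higher. In R3, H1-2 rose by 0.91 (SE 0.13, adjusted p = 0.00777), where 1.76% of all genes were higher. With the replicate number as a block, H1-2 in R3 had an adjusted p of 0.0193 and was not called. These calls also depended on single arrays. In R2 the 2 replication-linked calls became 0 and the 2 polyadenylated-class calls 0 or 1 (1 without R2 out of drug replicate 1) whichever array was left out, and in R3 the call of H1-2 was lost whichever array was left out. In R1 and RT4 R1 out of drug no histone gene passed in limma's test (1.45% and 0.966% of all genes did), and none of the 29 by the methods' t-test. At an unadjusted p under 0.05 in limma there were 12 and 12 of 37, with the share of all genes at that level not given. In RT4 R1 out of drug H2AC6 was at -1.27 (SE 0.53, adjusted p = 0.251), H2BC21 at -1.53 (SE 0.45, adjusted p = 0.118) and H1-2 at 1.20 (SE 0.57, adjusted p = 0.318) from parental cells, and the replication-linked median was 0.87. Without RT4 parental replicate 1 these became -0.68 (SE 0.34, adjusted p = 0.239), -1.08 (SE 0.35, adjusted p = 0.113), 0.50 (SE 0.24, adjusted p = 0.235) and 0.34. No gene of either class passed in that fit either, where 0.779% of all genes were higher and 1.15% lower. All 6 genes of the polyadenylated class had a lower mean in R1 out of drug than in parental cells, H1-2 by -0.98 (SE 0.28, adjusted p = 0.0882) at 9.75, 10.26 and 9.04, and none passed.

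Read across conditions, H2AC6 stood in RT112 at a mean of 10.02 in acute PD, 9.77 in R1 in drug and 9.07 in R2 in drug, then at 8.28 and 8.08 in R3 out of and in drug, 8.0 in parental cells, and 7.76 and 7.69 in R1 and R2 out of drug. Arrays of each condition overlapped those of the next in that order. Without its replicate 3, R1 in drug had a mean of 10.405 and came before acute PD. H2BC21 had the same order of conditions, from 11.54 in acute PD to 9.21 in R2 out of drug, and only parental cells (9.96) and R1 out of drug (9.27) were neighbours without overlap. Without the same array R1 in drug came first for H2BC21 as well, at 11.64. In RT4, H2BC21 was at 10.47 in parental cells and 10.10 in R1 in drug, which overlapped, and at 8.95 in R1 out of drug, which lay apart. Without parental replicate 1 the parental mean of H2BC21 was 10.02, below that of R1 in drug.

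For each array, the mean difference of the 23 replication-linked genes from the parental mean of the same line was set beside H2AC6 and H2BC21. The class mean was -0.79 ± 0.09 (mean ± SD of 3 arrays) in acute PD, -0.73 ± 0.95 in R1, -0.51 ± 0.20 in R2 and 0.06 ± 0.04 in R3, all in drug. Over the same conditions H2AC6 stood 2.02, 1.77, 1.07 and 0.08 above its parental mean. RT112 R1 in drug replicate 3 had a class mean of 0.37, above parental cells, where replicates 1 and 2 were at -1.26 and -1.28. In RT4 parental cells replicate 1 was at -1.10, where replicates 2 and 3 were at 0.68 and 0.41. Within conditions, the array lowest in replication-linked genes was highest in H2AC6 in 7 of 11 and highest in H2BC21 in 4, and the array highest in them was lowest in H2AC6 in 6 and lowest in H2BC21 in 5. In R3 out of drug the class means of the 3 arrays differed by under 0.01, and without that condition these counts were 6, 4, 5 and 4 of 10. They are a description with no test, and with 3 arrays such a match arises by chance in 1 of 3 conditions. In R1 out of drug the class mean, -0.32 ± 0.24, and H2AC6, at -0.24, were both below their parental means.

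**Figure D3:**
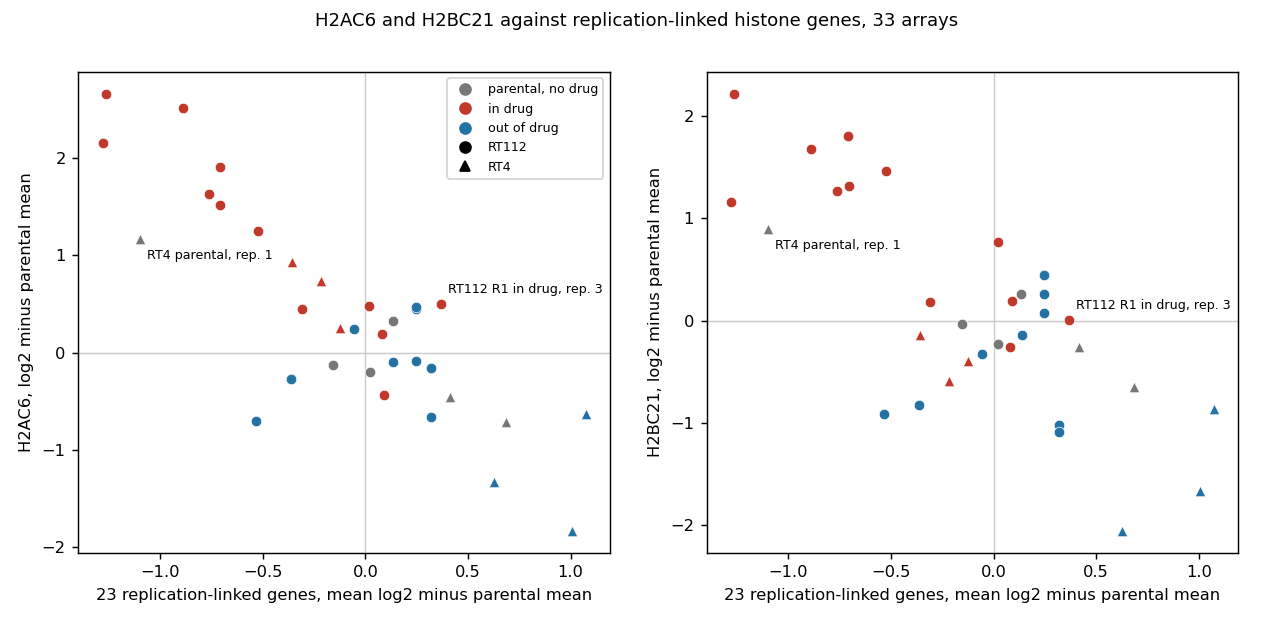
Each point is 1 of 33 arrays. The x axis is the mean log2 difference of the 23 replication-linked genes from their parental mean of the same cell line, and the y axis is the log2 difference of H2AC6 or H2BC21. The acute PD arrays have a class mean of -0.79 and H2AC6 at 2.02 on average. Further left lie RT112 R1 in drug replicates 1 and 2, at -1.26 and -1.28 with H2AC6 at 2.66 and 2.15, and RT4 parental replicate 1, at -1.10 and 1.17. The RT4 R1 arrays out of drug lie at the right, at 0.90 and -1.27 on average, or at 0.35 and -0.68 when RT4 parental replicate 1 is left out of the parental mean.

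Of the other 4 polyadenylated-class genes, H2BC5, H2BC11 and H2BC12 correlated with the replication-linked genes most closely and H1-2 less so. Over the 11 condition means, which share arrays, normalisation and the differences between the cell lines, H2BC12 had a median Pearson correlation of 0.88 with the 23 replication-linked genes, H2BC11 0.88, H2BC5 0.80 and H1-2 0.61, each above 0 with all 23. H2AC6 had a median of -0.83, below 0 with 22 of 23, and H2BC21 -0.41, below 0 with 20 of 23. Without the 2 arrays that stood apart these medians were 0.89, 0.87, 0.80, 0.65, -0.87 and -0.52, and H2BC11 was above 0 with 22 of 23. In several comparisons H1-2 stood apart from the class median. Its difference was 0.31 in acute PD and 0.37 in R2 in drug, where the class median was -0.82 and -0.53, and 1.02 in R3 in drug, where it was 0.08. In R1 in against out of drug H1-2 was at 0.67 and the class median at -0.39, or 0.14 and -0.98 without in-drug replicate 3. None of these 4 values of H1-2 passed. Out of drug against parental cells H1-2 was at 1.04 in R2 and 0.91 in R3, which passed with all arrays. The class median was 0.22 and 0.24 there. H1-2 lay below the class median in R1 out of drug, at -0.98 beside -0.29, and in R1 against R3 in drug, at -1.33 beside -0.61. The 5 genes most like H2BC12 among all genes tested were the replication-linked H1-5 (0.98), the splicing factor gene U2AF1 (0.97), PCNA-AS1 (0.97), an antisense RNA of the gene for the replication clamp, PTBP2 (0.96), which encodes an RNA-binding protein, and NUDT5 (0.96), which encodes a nucleotide hydrolase. The correlation of H2BC12 with H2AC6 was -0.82. These values are descriptions of 11 means with no test.

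**Figure D4:**
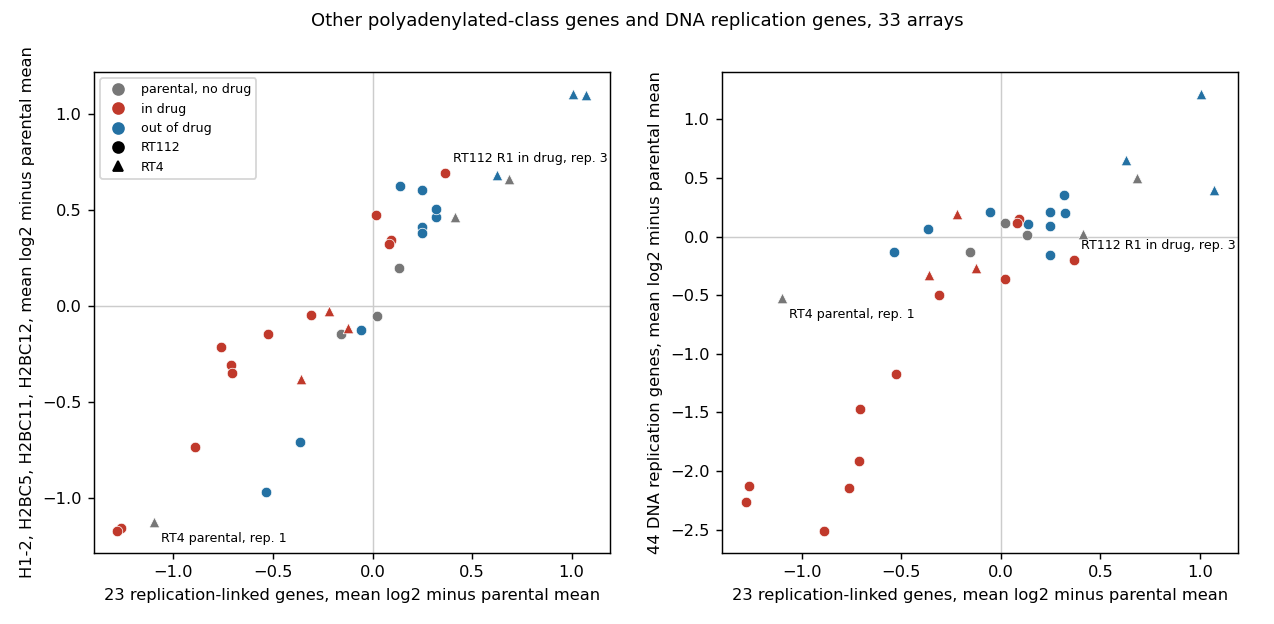
Each point is 1 of 33 arrays, with the mean log2 difference of the 23 replication-linked genes from their parental mean on the x axis. On the y axes are the same measure for H1-2, H2BC5, H2BC11 and H2BC12 together and for the 44 DNA replication genes. The DNA replication genes reach -2.19 on average in acute PD, where the replication-linked histone genes reach -0.79.

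The mean of the DNA replication list was -2.19 ± 0.30 (mean ± SD of 3 arrays) in acute PD, beside -0.79 ± 0.09 for the replication-linked histone genes, and -1.05 ± 0.50 in R2 in drug, beside -0.51 ± 0.20. In R1 in drug the list was at -2.13, -2.27 and -0.20 in replicates 1 to 3, where the histone class was at -1.26, -1.28 and 0.37, so replicate 3 was the highest in both. In RT4 parental cells the list was at -0.52, 0.50 and 0.02, and the histone class at -1.10, 0.68 and 0.41, so replicate 1 was the lowest in both.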

How the data were processed

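Total RNA was hybridised to Affymetrix Human Transcriptome 2.0 arrays, 33 in 11 conditions of 3. The deposited values are log2 values that the authors made by RMA, with Affymetrix Expression Console per the labels and a sketch version of RMA in Affymetrix Power Tools per the methods, for 70523 probe sets. No column belonged to another sample, and the table held no comparisons of the authors. RMA adjusts background and makes the arrays' distributions alike, so a shift shared by most genes would not be seen, and low levels are compressed.

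Probe sets were named from the platform annotation: 23781 carried 1 symbol and 1543 several. The brightest per symbol was kept, which left 22465 genes, and all 37 histone genes matched a RefSeq gene. Groups were taken from the sample titles. Pairs of conditions were compared on their 6 arrays with limma 3.58.1 in R 4.3.3 (lmFit, eBayes), with Benjamini-Hochberg adjustment over all genes and a threshold of 0.01 as in the methods, and the effect of resistance was compared between lines as an interaction over 12 arrays. The scripts were tested on simulated data with known changes. Promoters were RefSeq sequences, found for 33 of the 37.

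Named were every polyadenylated-class gene, in each main comparison the 4 replication-linked genes and the 3 genes of each list with the largest change past the threshold, divergent neighbours, and the 5 genes most correlated with H2BC12; others named were chosen after their values were seen. Members and lists were chosen with earlier results of these data known. Samples with the same number deviated together in every pair only for R3 out of drug against parental cells, with correlations of 0.384, 0.275 and 0.107. This hint of pairing comes from the data and not from the labels. The main fits were unpaired in every comparison, and the replicate block was run as an alternative. Alternatives were 1 fit per cell line, another threshold, a filter on low levels, a trended and robust prior, a second quantile normalization, centring, a replicate block, every probe set tested, a narrower class, the methods' t-test, and leaving out each array.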

Additional observations from a re-analysis of the deposited data

Results flagged for a closer look

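In 12 cases all arrays of one derivative lay on one side of the parental arrays and all arrays of another on the other side. The share of all genes with such a pattern is not given here, so the number is not a result about histone genes. Each value below is the first difference minus the second, on the log2 scale, and the difference between the derivatives was not tested unless a test is given. The test for an outlying sample within a group was not applied, since every group had 3 arrays.

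In drug, the H2B gene H2BC10 was at -1.18 in RT112 R2 and 0.38 in R3, a difference of -1.55. Set directly against R3 in limma, R2 was at -1.55 (SE 0.27, adjusted p = 0.0169).

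Out of drug, RT112 R1 stood against other derivatives in 5 genes. The linker gene H1-2 was at -0.98 in R1, and the difference was -2.03 from R2, -1.89 from R3 and -2.18 from RT4 R1, where it was at 1.04, 0.91 and 1.20. H2BC10 was at -0.81 in R1, and differed by -1.19 from R2, -1.47 from R3 and -2.70 from RT4 R1. The H2A gene H2AC16 was at -0.21 in R1, with differences of -0.44 from R2 and -0.75 from RT4 R1. H2AC21 at -0.67 and H2AC25 at -0.37 in R1 differed from R3 by -1.003 and -0.71. Between R2 and R3 out of drug, HIST2H2BF differed by -0.32, from -0.16 and 0.16. These contrasts share the parental arrays within RT112. The values of RT4 R1 rest in part on RT4 parental replicate 1, which stood apart, and without that array H1-2 was at 0.50, H2BC10 at 0.74 (from 1.89) and H2AC16 at 0.34 (from 0.54) in RT4 R1.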

How the results depend on the processing

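No named gene past the threshold changed direction under any alternative run. Values that did not pass did so at times, and the class median changed sign in at least 1 alternative in acute PD, R1 and RT4 R1 in drug, R2 against acute PD and R3 in against out of drug for the polyadenylated class, and in RT4 R1 in drug and R1 against acute PD for the replication-linked class. For named genes, 1483 values kept their side of the threshold under alternatives other than leaving out an array, 84 no longer passed and 39 newly passed; for left-out arrays these were 1223, 122 and 35. The alternatives for the comparisons out of drug, in against out of drug and between conditions in drug, and the fits without the 2 arrays that stood apart, were chosen after seeing the data. The counts below are of polyadenylated-class and replication-linked genes past the threshold, and the cause of a change was not tested unless fewer arrays or another threshold made it. In 1 fit over all arrays of the line, the counts were 2 and 5 in acute PD (4 and 14 otherwise), 1 and 1 in R1 in drug (0 and 0), 1 replication-linked gene in R2 in drug (6), 0 and 0 in R2 out of drug (2 and 2), 0 polyadenylated-class genes in R3 out of drug (1), 2 in R1 in against out of drug (0), 1 replication-linked gene in R2 in against out of drug (9), 0 and 0 in RT4 R1 in against out of drug (3 and 15), 2 and 2 in R1 against R3 (0 and 0), 1 replication-linked gene in R1 (0) and 0 in R2 (1) against acute PD, and 1 and 6 in R3 against acute PD (2 and 12). The methods' t-test gave 0 and 3 in acute PD and 0 in R2 in drug, R2 and R3 out of drug, R2 and RT4 R1 in against out of drug, R2 against R3, and R2 and R3 against acute PD. At an adjusted p under 0.05 there were 3 and 10 in R2 in drug, 1 and 1 in R3 in drug, 2 and 3 in R3 out of drug, 5 and 18 in R2 in against out of drug, 6 polyadenylated-class genes in RT4 R1 in against out of drug, 1 replication-linked gene in R1 against R3, 2 and 11 in R2 against R3, 7 replication-linked genes in R2 against acute PD and 5 polyadenylated-class genes in R3 against acute PD. Without genes under the 30th percentile of level, the polyadenylated class had 1 call in R2 in drug, 1 in R3 in drug and 3 in R2 in against out of drug, and the replication-linked class 2 in R2 against acute PD. Normalising by quantiles again gave 1 polyadenylated-class gene in R2 in drug, 1 in R3 in drug and 2 in R3 out of drug. Centring on array medians moved the replication-linked median in acute PD to -0.87 and gave 0 in R3 out of drug (polyadenylated class) and R2 against R3 (replication-linked). With H2BC11 counted as replication-linked, the polyadenylated class had 0 in R2 in against out of drug. Leaving out both arrays that stood apart gave 3 histone genes in the test between the lines, in place of 0.

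Arrays with the same number deviated together in every pair only in R3 out of drug against parental cells. There the replicate block gave 0 polyadenylated-class genes in place of 1 in the unpaired main fit. In the other comparisons samples shared only a number, with correlations between -0.44 and 0.38 over all 18 comparisons, and every array was closest to its own number in 1, RT4 R1 in against out of drug, which is a hint from the data and not from the design. The block there changed no count by over 1.5 times. It gave 2 polyadenylated-class genes in acute PD, 0 in R2 out of drug and 1 in R3 against acute PD, and 0 replication-linked genes in R2 against R3 and 7 in R3 against acute PD, and moved no other count by over 1.5 times.

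Leaving out 1 array moved the replication-linked median between -0.91 and -0.76 in acute PD and between 0.62 and 0.90 in R3 against acute PD. It moved further, and furthest down without RT112 R1 in drug replicate 3, in R1 in drug (-1.22 to -0.46), R1 in against out of drug (-0.98 to -0.010), R1 against R3 (-1.23 to -0.34) and R1 against acute PD (-0.38 to 0.37), and without RT4 parental replicate 1 in RT4 R1 in drug (-0.78 to 0.038) and out of drug (0.34 to 1.16). It moved the polyadenylated-class median between -0.69 and 0.039 in R1 in drug and between -1.20 and -0.28 in R1 against R3. Counts of the polyadenylated class ran from 2 to 3 in acute PD, 0 to 4 in R1 in drug, 0 to 2 in R2 in drug, 0 to 1 in RT4 R1 in drug, 0 to 1 in R2 out of drug, 0 to 0 in R3 out of drug, 0 to 2, 0 to 4 and 1 to 3 in R1, R2 and RT4 R1 in against out of drug, 0 to 4 in R1 against R3, and 0 to 1 and 0 to 3 in R1 and R3 against acute PD. Replication-linked counts ran from 0 to 14 in R1 in drug, 0 to 10 in R2 in drug, 0 to 8 in RT4 R1 in drug, 0 to 0 in R2 out of drug, 0 to 9, 0 to 11 and 8 to 14 in R1, R2 and RT4 R1 in against out of drug, 0 to 14 and 0 to 5 in R1 and R2 against R3, and 0 to 3, 0 to 1 and 0 to 13 in R1, R2 and R3 against acute PD. Counts moved by over 1.5 times with arrays of many conditions, which are named beside the counts. The number of arrays, 3 a condition, limits the precision, and genes near the array medians in level may lie near background, for which the deposited values give no measure.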

Other observations

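Histone genes that share their probe sets were read as a description, since a shared probe set cannot be given to 1 gene. There were 38 such probe sets, 12 of them for H3 genes, which encode the histone that had no probe set of its own, and 13 for H4 genes. In acute PD the H3 probe sets had a median difference of -1.23 from parental RT112, with 11 of 12 below 0. The H4 probe sets were at -0.24, with 8 of 13 below 0 and 5 above, and ranged from -1.93 to 1.28. The median of all probe sets was 0.04. In RT4 R1 in against out of drug the H3 probe sets were at a median of -1.69 and the H4 probe sets at -0.92, and 34 of all 38 were below 0. The H4 probe sets ranged there from -3 to 2.73, with 3 of 13 above 0, so some shared probe sets were higher in drug. In R2 in drug against parental cells the H3 median was -0.89.

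H2BC11 had a second, dimmer probe set. It differed by -0.33 (adjusted p = 0.0511) in acute PD and by -0.51 (adjusted p = 0.0360) in RT4 R1 in against out of drug, where the brighter one fell by 1.24 in the former and was at -1.89 in the latter. In R3 in drug against acute PD the second probe set was higher, by 0.51 (adjusted p = 0.00817), by limma.

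The genes most like H2AC6 over the 11 condition means were looked up after its values were seen. They were WBP1 (0.97), GRN (0.97), which encodes progranulin, RBPMS (0.97), WIPI2 (0.96), which acts in autophagy, and ID2 (0.96), which encodes an inhibitor of basic helix-loop-helix factors. None was a histone gene, and the correlation of H2AC6 with H2BC21 was 0.71.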
